A study of Mus musculus with 8 samples.

Results

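Developmental transcription factors were examined in spermatogonia as they left the undifferentiated state. The genes are the 86 entries of a 5736-gene expression table whose symbols begin with the name of a classical family of factors, among them HOX, LHX, SOX, FOX, PAX, TBX, GATA, NKX, DLX, KLF, EGR, ETS, ETV, POU, NR, STAT, E2F, TCF, IRX and MEIS. The symbol rule matched 93 entries, and 7 (*Foxn4*, *Hoxb13*, *Lhx1*, *Sox3*, *Pax7*, *Tbx1* and *Etv5*) were left out by the same rule. Of the 21 families of the rule, 19 had a gene in the table, and GATA and ETS had none.

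RNA-seq was performed on EGFP+ germ cells sorted from pups of the strain CD1:Uchl1-eGFP, in which the *Uchl1* promoter drives EGFP and whose C57BL/6 founders were outcrossed to CD-1. All pups had received WIN18,446 by mouth, which blocks the synthesis of retinoic acid (RA), at 100 µg per g of body weight for 10 days from postnatal day 1. The 2 Aal libraries are undifferentiated spermatogonia, as found in these testes before RA is given. The 3 A1 libraries are type A1 differentiating spermatogonia, 24 h after RA was injected once on day 11 (10 µl, 10 µg/µl), and the 3 A3 libraries are type A3 differentiating spermatogonia, a later stage of the same course whose age the labels do not state. Each preparation pooled at least 5 pups of a litter. Replicates were independent cell preparations per the methods but only numbered in the labels, so p-values measure the spread between these libraries.

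Transcription factors bind short DNA motifs near genes and raise or lower their transcription, and the families here are known by their DNA-binding domains: the homeodomain (HOX, LHX, PAX, NKX, DLX, IRX, MEIS and POU), the HMG box (SOX), the forkhead (FOX), the T-box, the zinc finger (KLF, EGR and nuclear receptors), and the E2F and STAT domains. Most are known from the patterning of the embryo. In the male germ line, E2F and FOXM1 proteins accompany cell division, OCT4 (*Pou5f1*) and *Etv4* mark or serve undifferentiated spermatogonia, and RA signals through nuclear receptors that bind repeats of the element AGGTCA.

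Promoter sequence is shown for 6 of these genes, 3 whose RNA rose after RA and 3 whose RNA fell. The 6 were picked with no fixed rule. RefSeq promoter windows (build GRCm38.p6) matched 64 of the 86 genes. The 250 bases before each start are printed 5′ to 3′ on the gene's strand with the mm9 position of their exact match, and only windows that touch no annotated exon were taken. Capitals mark matches on either strand to the GC box GGGCGG, to the CCAAT box, to the nuclear receptor element AGGTCA, to the E2F site, searched as TTTCCCGC or else as TTTGGCGC, and to the ETS site CCGGAAG.
E2f7 (chr10:110182245-110182494, plus strand): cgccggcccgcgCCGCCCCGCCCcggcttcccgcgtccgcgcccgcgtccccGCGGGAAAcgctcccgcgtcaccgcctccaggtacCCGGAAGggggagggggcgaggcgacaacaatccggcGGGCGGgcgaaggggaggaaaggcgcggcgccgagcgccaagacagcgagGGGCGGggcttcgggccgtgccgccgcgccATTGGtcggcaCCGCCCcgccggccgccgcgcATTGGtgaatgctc
E2f8 (chr7:56136967-56137216, minus strand): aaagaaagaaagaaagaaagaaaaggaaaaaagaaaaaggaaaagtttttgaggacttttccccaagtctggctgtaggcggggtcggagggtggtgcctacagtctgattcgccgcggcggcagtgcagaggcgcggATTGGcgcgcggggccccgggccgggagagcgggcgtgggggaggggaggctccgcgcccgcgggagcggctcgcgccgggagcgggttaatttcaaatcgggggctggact
Nkx1-2 (chr7:139791321-139791570, minus strand): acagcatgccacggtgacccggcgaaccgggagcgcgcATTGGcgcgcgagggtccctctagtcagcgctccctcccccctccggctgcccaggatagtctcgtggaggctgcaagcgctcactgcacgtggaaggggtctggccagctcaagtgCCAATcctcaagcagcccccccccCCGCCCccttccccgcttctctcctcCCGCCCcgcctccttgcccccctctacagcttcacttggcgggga
Pou5f1 (chr17:35642727-35642976, plus strand): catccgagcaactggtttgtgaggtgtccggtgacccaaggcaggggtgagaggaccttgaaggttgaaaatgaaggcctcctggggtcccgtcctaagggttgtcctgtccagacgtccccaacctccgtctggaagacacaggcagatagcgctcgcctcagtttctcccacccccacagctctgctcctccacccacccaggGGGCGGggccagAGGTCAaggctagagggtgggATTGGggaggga
Nr5a2 (chr1:138857026-138857275, minus strand): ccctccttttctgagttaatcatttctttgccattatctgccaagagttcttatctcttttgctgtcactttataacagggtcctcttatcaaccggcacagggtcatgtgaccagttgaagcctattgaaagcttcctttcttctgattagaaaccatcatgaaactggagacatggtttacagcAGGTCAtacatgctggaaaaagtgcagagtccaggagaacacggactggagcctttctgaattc
Tcf7l2 (chr19:55816050-55816299, plus strand): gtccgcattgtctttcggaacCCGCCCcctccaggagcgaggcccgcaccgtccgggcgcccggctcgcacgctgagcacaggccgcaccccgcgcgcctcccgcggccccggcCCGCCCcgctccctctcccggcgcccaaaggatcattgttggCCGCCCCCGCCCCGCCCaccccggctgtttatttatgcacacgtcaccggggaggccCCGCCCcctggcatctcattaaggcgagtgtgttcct

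The 3 genes that rose had unlike windows. The *E2f7* window held an E2F match 198 bases before the start, an ETS match at 163 bases, 2 CCAAT matches and 5 GC boxes, 2 of which overlap. *E2f8* had 1 CCAAT match and *Nkx1-2* had 2 CCAAT matches and 2 GC boxes. Among the genes that fell, the element AGGTCA lay 33 bases before the *Pou5f1* start and 64 bases before that of *Nr5a2*, whereas *Tcf7l2* had 6 GC boxes and no other match. For shares, a gene was counted where any of its RefSeq windows held the motif, not only the window printed, so genes with several starts have more chances of a match. The element AGGTCA was found for 13 of 64 of these transcription factors (20.3%), 15.8% of all 27025 genes with a window and 13.0% of the 4350 such genes of the table. The 13 include *Nr6a1*, called higher by limma, and *Hoxb4*, *Nr5a2* and *Pou5f1*, called lower. The E2F site was in 2 of 64, *E2f3* and *E2f7* (3.1%, against 1.5% of all genes and 2.6% of those of the table), and the ETS site in 4 of 64 (6.2%, against 7.8% and 12.9%). GC boxes were in 62.5% (35.4% of all genes and 60.5% of those of the table), and CCAAT in 48.4% (37.5% and 40.3%). A match is a string of letters in the window and no evidence of binding.

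Expression is given as FPKM (fragments scaled for gene length and library size), as deposited. Library totals recovered from the values ran from 18276175 to 27316467 reads, and the table held 34.0% to 34.4% of each. The 86 genes had 3 to 11699 reads in a library, and 18 had under 10 reads in at least 1 library, so that counting error is large for them. Undifferentiated markers of the table (6 of 12 listed, such as *Nanos2* and *Ret*) summed to 307 and 342 FPKM in Aal, 63.9 to 100 in A1 and 58.5 to 65.4 in A3. Differentiating markers (5 of 8 listed) summed to 128 and 118 FPKM in Aal, 213 to 240 in A1 and 254 to 275 in A3. Among them *Ccnd2* fell (means 40.7, 35.1 and 18.2 FPKM in Aal, A1 and A3) and *Rec8* was highest in A1 (10.3, 28.3 and 15.7 FPKM). Sertoli cell markers (10 of 16 listed) summed to 37.7 and 49.3 FPKM in Aal, to 56, 52.9 and 373 in A1-1 to A1-3 and to 192 to 359 in A3. Leydig (2 of 6), myoid (3 of 6) and macrophage markers (2 of 6) were highest in A1-3, at 6.86, 6.53 and 9.13 FPKM against at most 1.78, 3.36 and 1.28 in the other libraries. Endothelial markers (3 of 6) summed to 7.62 and 8.86 FPKM in Aal, 4.64 to 5.78 in A1 and 2.31 to 2.61 in A3, and germ cell markers (2 of 5, of which *Uchl1* drives the sort) to 4418 to 7644 FPKM. No red blood cell marker of 6 was in the table. Since the table held only 2 of 5 listed germ cell markers, absence from it does not show that a gene was not expressed.

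The first comparison asked which factors differ between A1 and Aal spermatogonia, 24 h after RA. A gene was called at a limma adjusted p of at most 0.01 with a log2 difference of over 1 in either direction on the scale log2(FPKM + 1), where the change of a weakly expressed gene appears smaller than it is. Of the 86 genes, 65 reached 1 FPKM in at least 2 of the libraries compared and were tested, and 16 were called (24.6% of those tested, against 9.15% of the 4632 genes tested in the table). *E2f7*, *E2f8*, *Foxm1* and *Nr6a1* were the 4 called higher (4.19% of all tested genes). Among the 12 called lower (4.97% of all tested genes) were *Tcf7l2*, *Irx2*, *Sox10*, *Pou3f2*, *Egr3*, *Foxc2*, *Foxa2*, *Klf7*, *Nr5a2*, *Tbx3* and *Etv4*. The median log2 difference was -0.19 over the 65 and 0.03 over all genes tested. A gene can reach the minimum through 1 group alone, so these shares do not describe all 86 genes. With 1 Aal library left out, so that the other is assumed to vary like the A1 libraries, 8 (without Aal-1) or 9 (without Aal-2) were called.

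Over the longer interval, A3 against Aal, 64 of the 86 genes were tested and 23 were called (35.9%, against 17.6% of 4687 genes). There were 7 higher (background 7.87%) and 16 lower (background 9.69%), and the median log2 difference was -0.35 against 0.05 over all genes tested. *Nkx1-2*, *Lhx6* and *Sox12* joined the 4 genes already named among the higher ones. The genes called lower here and not at A1 were *Hoxb2*, *Hoxb3*, *Hoxb4*, *Nr1i3*, *Nr2c1*, *Pou5f1* and *Stat2*, and 13 genes were called in both comparisons with Aal, which share the Aal libraries. The count was 18 without Aal-1 and 14 without Aal-2. In all, 26 of the 86 genes were called in at least 1 comparison, and 19 were tested in none.

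Between A1 and A3 none of 62 tested genes was called by limma, where 1.50% of 4590 genes were. At an unadjusted p under 0.05 there were 25 of the 62, against 34.0% of all genes tested. At an adjusted p of at most 0.01 and any fold there were 4 (*Stat2*, *Pou5f1*, *Hoxa3* and *Foxo6*, all lower in A3), against 7.60% of all genes tested. There were 2 genes called without A1-3 (*Nkx1-2* and *Nkx1-1*) and 1 without A3-1 (*Nkx1-2*). Limma voom on the recovered reads of all genes, with no FPKM minimum, called 2 of 86 (*Nkx1-2* higher and *Hoxa3* lower) where 3.77% of 5736 genes were called, with 30 of 86 at an unadjusted p under 0.05 (33.4% of all genes). The same test called 29 of 86 genes in A1 against Aal (33.7%, against 13.1% of 5736 genes) and 36 in A3 against Aal (41.9%, against 25.2%). Among the genes tested by limma, those called by voom alone were *Dlx4*, *Foxa1*, *Hoxa3*, *Hoxb8*, *Pou2f3*, *Sox15*, *Sox30*, *Tbx20* and *Tcf4*. Bulk libraries cannot tell fewer cells of a type from less RNA per cell in any of these comparisons.

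**Figure D1:**
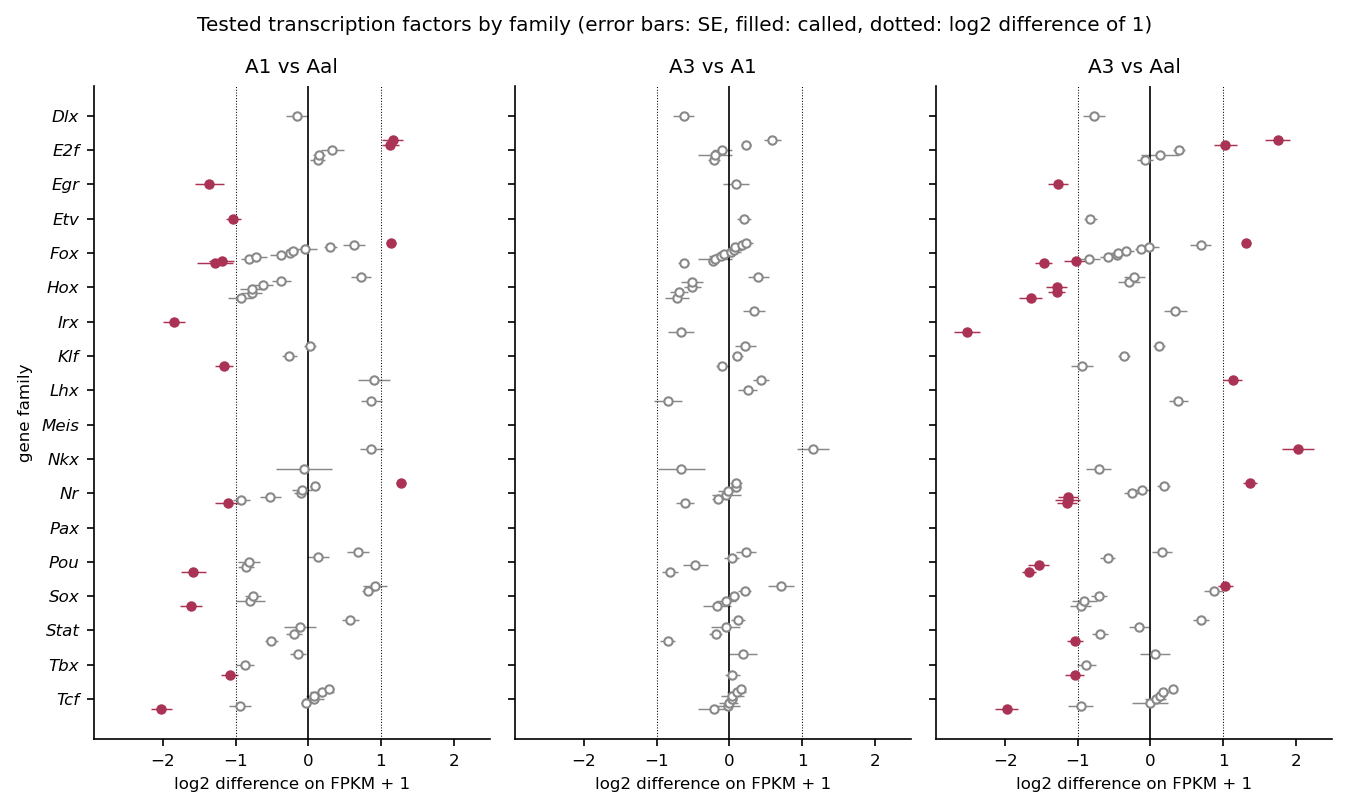
Log2 difference on FPKM + 1 (x axis) of each tested gene by family (y axis) for the 3 comparisons, with the SE as error bar, called genes filled and dotted lines at a log2 difference of 1 in either direction. E2F genes sit at or right of 0 in A1 against Aal, most called genes lie to the left of 0 in both comparisons with Aal, and no filled point appears between A1 and A3.

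E2F factors control genes of DNA replication, and *E2f7* and *E2f8* encode the atypical members, known as repressors. The *E2f7* level was 5.44 and 4.37 FPKM in Aal, 11.5, 12.6 and 11.6 in A1 and 13.5, 9.49 and 10.4 in A3. Every A1 and A3 library was above both Aal libraries, and A1 and A3 overlapped. It differed by 1.13 ± 0.12 (log2 scale, SE) in A1 against Aal (limma adjusted p = 0.00042) and 1.03 ± 0.16 in A3 against Aal (0.000842). The latter lost its call without Aal-2 or A3-1 (0.89 to 0.90) and with median-ratio scaling (0.99).

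*E2f8* stood at 4.26 and 3.02 FPKM in Aal, at 9.11, 9.77 and 8.91 in A1 and at 17.6, 13.2 and 12.9 in A3. The 3 groups did not overlap and the level was highest in A3. The log2 difference from Aal was 1.16 ± 0.14 in A1 (limma adjusted p = 0.000778; 0.96 and not called without Aal-2) and 1.75 ± 0.17 in A3 (8.4e-05), and that from A1 to A3 was 0.59 ± 0.12 (0.015), which was not called. The other 3 E2F genes did not pass. *E2f4* acts as a repressor with pocket proteins and was the most abundant of the E2F genes in the table. It ran from 29.4 to 32.3 FPKM in Aal, 31.6 to 36.9 in A1 and 37.9 to 42.2 in A3. Its log2 difference was 0.39 ± 0.08 in A3 against Aal (limma adjusted p = 0.00374). *E2f3* stayed between 7.78 and 9.49 FPKM in all 8 libraries and *E2f2* between 0.617 and 1.94 FPKM.

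The partners and targets of E2F moved unevenly. Of 11 E2F target genes in the table (24 listed), 4 were called higher in A1 against Aal (*Ccna2*, *Cdc45*, *Mcm2* and *Uhrf1*), where 4.19% of all tested genes were. In A3 against Aal 6 were called higher, where 7.87% of all tested genes were. None was called lower in either comparison, and the median log2 difference was 0.80 and 1.07. *Pola1* was nonetheless lower in A3 than in Aal (-0.53 ± 0.12, limma adjusted p = 0.0066), not past the fold. *Ccna2*, encoding cyclin A2, rose from a mean of 31.4 FPKM in Aal to 93.8 in A1 and stood at 79.7 in A3. None of the 11 was called between A1 and A3. Of 6 partners in the table (21 listed), none was called at A1. *Ccnd1*, encoding cyclin D1, rose from A1 to A3 (37.4 to 77.8 FPKM, log2 difference 1.03 ± 0.11, limma adjusted p = 0.00123), whereas *Ccnd2* and *Rb1*, encoding cyclin D2 and the retinoblastoma protein, fell from Aal to A3 by 1.12 and 1.26 on the log2 scale.

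*Foxm1*, a forkhead gene whose product activates genes of the G2 and M phases, was the FOX gene with the highest mean over the 8 libraries, although *Foxr1* was higher in Aal. It had 35.1 and 34.7 FPKM in Aal, 74.4, 83.6 and 76.5 in A1 and 89.9, 87.2 and 89.2 in A3. The groups did not overlap, and the 3 A3 libraries lay close together above A1. The log2 difference from Aal was 1.14 ± 0.07 in A1 (limma adjusted p = 0.000136) and 1.32 ± 0.06 in A3 (7.07e-06), and it was called in every alternative. *Foxm1* overlaps an annotated gene on its strand, *4933413G19Rik*.

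**Figure D2:**
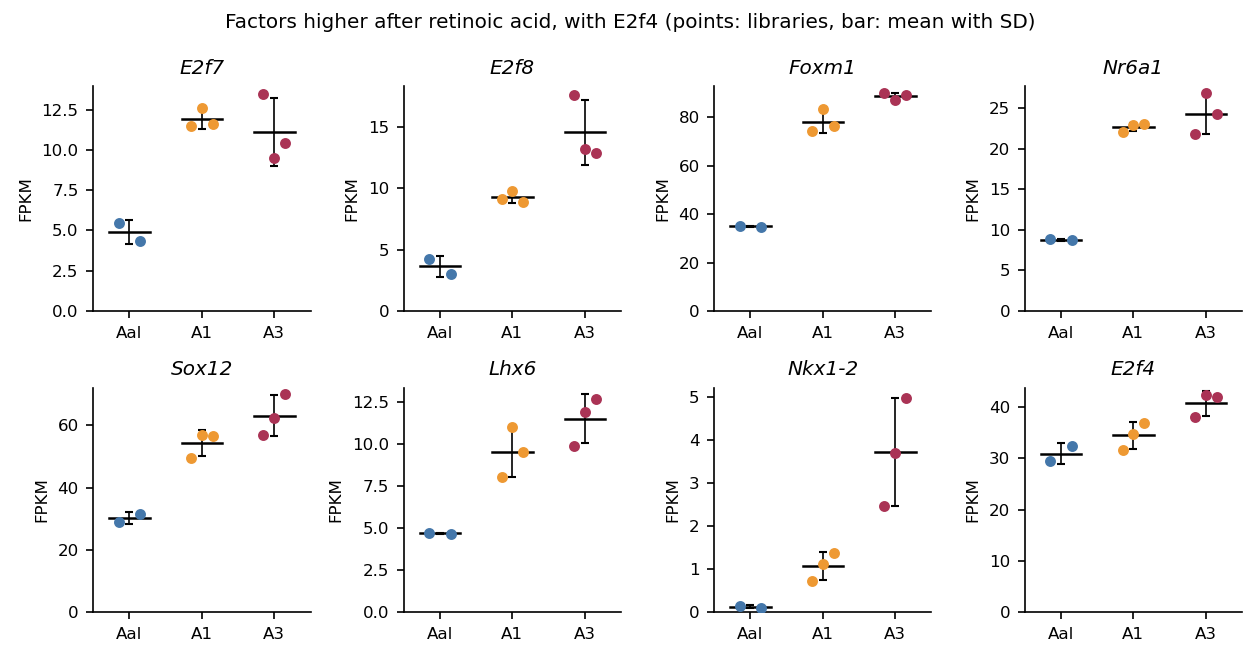
FPKM (y axis, from 0) of the 7 genes called higher than in Aal, and of *E2f4*, in each library (points) with the mean and SD of each group (bars). The Aal points lie below all A1 and A3 points in the 7 called genes, and *Nkx1-2* goes from at most 0.152 FPKM in Aal to between 2.47 and 4.97 in A3.

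Nuclear receptors, ligand-gated or orphan factors, gave 9 genes, of which 7 were tested in A1 against Aal. *Nr6a1*, encoding the orphan receptor germ cell nuclear factor, stood at 8.83 and 8.68 FPKM in Aal, 22.1, 22.9 and 23 in A1 and 21.8, 26.8 and 24.3 in A3. All 6 libraries of differentiating cells lay far above both Aal libraries, and A1 and A3 overlapped. It was called in every alternative, with log2 differences of 1.28 ± 0.07 (limma adjusted p = 0.000127) and 1.37 ± 0.1 (2.98e-05). *Nr6a1* overlaps 5 other annotated genes, 4 of them on the other strand.

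*Nr5a2*, the gene of liver receptor homolog 1, which activates *Pou5f1* in embryonic stem cells, moved the other way. It was at 20.6 and 22.8 FPKM in Aal, 7.2, 11.1 and 10.8 in A1 and 7.08, 10.8 and 10.4 in A3, so that A1 and A3 overlapped below Aal. Its log2 difference was -1.11 ± 0.17 in A1 and -1.14 ± 0.17 in A3 (limma adjusted p = 0.00221 and 0.000558). The A1 call was lost without Aal-1, Aal-2 or A1-1 (-1.18 to -0.93) and the A3 call without Aal-2 or A3-1 (-1.07 to -0.97).

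*Nr2c1*, encoding testicular receptor 2, went from 4.09 and 4.47 FPKM in Aal to 3.19, 2.42 and 2.5 in A1 and 1.64, 1.41 and 1.2 in A3, with no overlap between the groups (A3 against Aal -1.13 ± 0.14, limma adjusted p = 0.000239). *Nr1i3*, the constitutive androstane receptor gene, was at 1.49 and 1.77 FPKM in Aal, 0.387 to 0.397 in A1 and 0.112 to 0.336 in A3, where libraries had 4 reads at the lowest. It was called lower in A3 against Aal (-1.15 ± 0.14, 0.000202), and *Tomm40l* overlaps it on the other strand. *Nr1d2*, the heme receptor REV-ERB beta and the most abundant of the group, was between 33.3 and 43.2 FPKM in all libraries, and *Nr2f6* between 13.6 and 19. *Nr3c1*, encoding the glucocorticoid receptor, ran from 8.62 to 11.4 FPKM, with a log2 difference of -0.26 ± 0.1 in A3 against Aal (0.0606).

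Among 11 other receptors and coregulators in the table (30 listed, 9 tested in each comparison with Aal), the estrogen receptor genes *Esr1* and *Esr2* were called lower in both comparisons with Aal, and no other was called. *Esr1* went from a mean of 3.07 FPKM in Aal to 0.389 in A1 and 0.476 in A3 (-1.55 ± 0.13 and -1.46 ± 0.12). *Rarb*, a retinoic acid receptor gene known as a direct target of RA, was under the filter, with 0.0329 and 0.0422 FPKM in Aal, 0.732 to 1.1 in A1 and 0.32 to 0.433 in A3.

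POU factors are homeodomain proteins with a second DNA-binding domain. *Pou5f1*, which encodes OCT4, stood at 23.5 and 25.7 FPKM in Aal, 14.4, 13.7 and 11.3 in A1 and 6.77, 7.69 and 6.75 in A3. The groups were fully separate, and A1 lay between Aal and A3. The log2 difference was -0.86 ± 0.11 from Aal to A1 (limma adjusted p = 0.000979), -0.81 ± 0.11 from A1 to A3 (0.00329) and -1.67 ± 0.1 over both steps (1.46e-05), of which the last was called, in every alternative. *Tcf19*, whose annotated gene lies 1957 bases beyond the end of *Pou5f1*, stood at 3.84 to 8.07 FPKM with overlapping groups.

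*Pou3f2*, encoding the neural factor BRN2, had 3.33 and 2.49 FPKM in Aal, 0.5, 0.239 and 0.174 in A1 and 0.362, 0.285 and 0.36 in A3. The drop was complete at A1, where both differentiating groups overlapped at 0.5 FPKM or less. It was called in both comparisons (-1.58 ± 0.17 and -1.54 ± 0.14), and the means differed 9.55-fold in A1 against Aal. *Pou2f2*, known from B cells, was at 19.3 to 20.5 FPKM in Aal, 9.41 to 13.8 in A1 and 12.1 to 14.2 in A3 (-0.81 ± 0.15 and -0.59 ± 0.1, both not called). *Pou4f1*, a sensory neuron factor, stayed between 3.63 and 5.07 FPKM. *Pou2f3*, of tuft cells and skin, was highest in A1, at 0.891, 1.26 and 1.45 FPKM against 0.378 and 0.347 in Aal and 0.356 to 0.942 in A3 (0.68 ± 0.15 from Aal to A1, limma adjusted p = 0.00955).

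HOX genes encode the homeodomain proteins that set position along the body axis, and 9 were in the table: 4 of the B cluster, 2 of the A cluster, 2 of the D cluster and *Hoxc13*. All were low, with no library above 4.05 FPKM. The neighbours *Hoxb2*, *Hoxb3* and *Hoxb4* on chromosome 11 (mm9, 96177998 to 96217003, plus strand), with 1687 bases between *Hoxb4* and *Hoxb3* and 4946 between *Hoxb3* and *Hoxb2*, fell together from Aal to A3. *Hoxb3* had 4.05 and 3.51 FPKM in Aal, 1.09, 1.9 and 1.57 in A1 and 0.809, 0.325 and 0.468 in A3. *Hoxb2* had 2.41 and 2.25 FPKM in Aal, 0.747, 1.06 and 1.04 in A1 and 0.292, 0.385 and 0.413 in A3. *Hoxb4* had 3.76 and 3.07 FPKM in Aal, 1.61, 1.98 and 1.19 in A1 and 0.987, 0.68 and 0.756 in A3. In each of the 3 genes the groups were ordered Aal, A1, A3 without overlap.

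The log2 differences of A3 against Aal were -1.65 ± 0.16 for *Hoxb3*, -1.29 ± 0.12 for *Hoxb2* and -1.29 ± 0.14 for *Hoxb4* (limma adjusted p = 8.68e-05, 6.77e-05 and 0.000146). The step from Aal to A1 was -0.93, -0.78 and -0.77 and was not called by limma, although voom on the recovered reads called all 3 (-1.32, -1.29 and -1.08). *Hoxb3os* is annotated opposite *Hoxb2* and *Hoxb3*, *Mir10a* lies within *Hoxb4*, and *Hoxb7* overlaps *Hoxb8* on the same strand. *Hoxb8*, 31358 bases from *Hoxb4*, had 1.69 and 1.78 FPKM in Aal, 0.602, 0.803 and 0.931 in A1 and 1.52, 1.07 and 1.48 in A3, lowest in A1. It too fell from Aal to A1 (-0.62 ± 0.14, limma adjusted p = 0.00929, not past the fold), and voom called that step (-1.17). It did not fall further to A3, and the difference from A1 to A3 (0.40 ± 0.14, limma adjusted p = 0.0772) was not called.

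The 2 genes of the A cluster were highest in A1. *Hoxa3* had 0.7 and 0.814 FPKM in Aal, 1.73, 2.22 and 1.79 in A1 and 0.81, 0.915 and 0.685 in A3. Its A1 libraries were above all others, and Aal and A3 overlapped. The log2 difference was 0.73 ± 0.14 from Aal to A1 (limma adjusted p = 0.00481) and -0.69 ± 0.12 from A1 to A3 (0.00871), neither of them past the fold, whereas voom on the reads called both (1.34 and -1.27). *Hoxa2*, under the filter, had 0.163 and 0.18 FPKM in Aal, 0.818, 0.907 and 1.02 in A1 and 0.327, 0.504 and 0.335 in A3, with 7 to 44 reads, and was called by voom in A1 against Aal (2.33 ± 0.46, voom adjusted p = 0.00446). An annotated *Hoxa3* transcript overlaps *Hoxa2* on the same strand, so reads of the pair may not be fully separate.

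The D cluster and *Hoxc13* gave no call. *Hoxd8* was at 1.31 and 1.46 FPKM in Aal, 0.763 to 0.988 in A1 and 0.663 to 1.23 in A3, *Hoxd1* at 0.0786 to 0.5 FPKM in all libraries, and *Hoxc13* at 0.294 to 0.789 FPKM. None of 6 listed HOX cofactors of the PBX and PKNOX families was in the table, which does not show whether they were expressed. *Meis3*, of the related MEIS family, was at 0.0898 and 0.14 FPKM in Aal and 0.357 to 0.709 in A1 and A3. Of 10 Polycomb and Trithorax genes in the table (19 listed), whose products keep HOX genes silent or active, *Cbx7* and *Kmt2d* were called lower in A3 against Aal, from means of 44.6 and 38.6 FPKM to 19.4 and 17. *Ezh2*, the histone H3 lysine 27 methyltransferase, had means of 14, 25 and 14.7 FPKM in Aal, A1 and A3, with log2 differences of 0.80 ± 0.09 from Aal to A1 and -0.74 ± 0.11 from A1 to A3 (limma adjusted p = 0.000482 and 0.00407), neither past the fold.

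**Figure D3:**
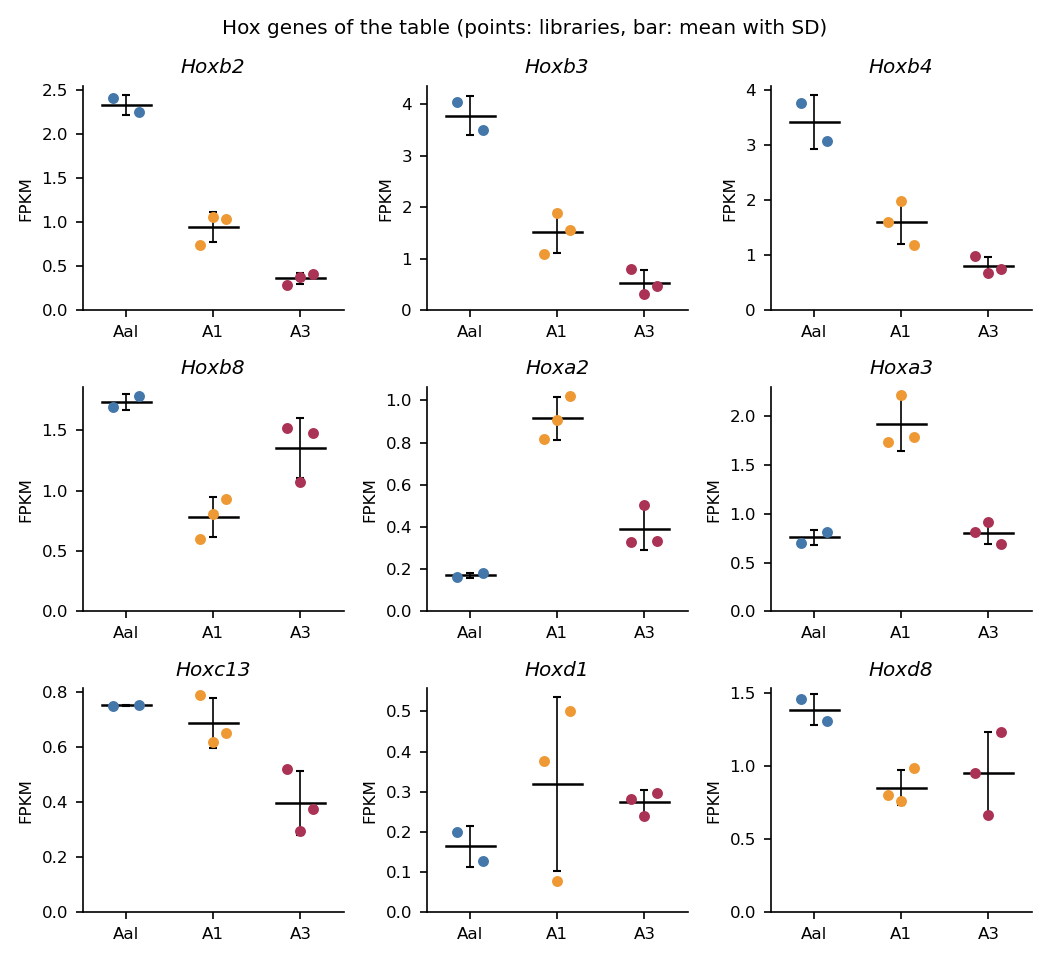
FPKM (y axis, from 0, a different range in each panel) of the 9 HOX genes in each library (points) with the mean and SD of each group (bars). *Hoxb2*, *Hoxb3* and *Hoxb4* step down from Aal to A1 to A3, *Hoxa2* and *Hoxa3* are highest in A1, and *Hoxb8* is lowest in A1.

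Symbols beginning with Tcf cover unrelated proteins. *Tcf7l2*, whose HMG box protein recruits β-catenin in Wnt signalling, had 16.2 and 17.7 FPKM in Aal, 4.12, 3.02 and 3.21 in A1 and 4.53, 3.18 and 3.07 in A3. Both differentiating groups lay at about the same level, far under Aal. Its log2 difference came to -2.02 ± 0.14 in A1 and -1.98 ± 0.16 in A3 (limma adjusted p = 0.000173 and 3.38e-05), and the means differed 4.91-fold in A1 against Aal. Its relative *Tcf7l1* stayed between 7.91 and 10.9 FPKM, and none of 5 Wnt partners in the table (14 listed), among them *Lef1* and *Apc*, was called by limma.

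The E proteins, which pair with tissue-specific bHLH factors, differed among themselves. *Tcf4* went from 6.82 and 7.98 FPKM in Aal to 3.29, 2.87 and 3.97 in A1 and 4.21, 3.07 and 2.75 in A3, with log2 differences of -0.94 ± 0.15 and -0.96 ± 0.17 (limma adjusted p = 0.00221 and 0.00148), just under the fold, and was called lower in both by voom on the reads (-1.16 ± 0.14 and -1.19 ± 0.16, voom adjusted p = 0.000341 and 8.7e-05). *Tcf12* ran from 42.2 and 43.7 FPKM in Aal to 48.7 to 57 in A1 and 52.5 to 54.5 in A3 (0.31 ± 0.06 in A3, 0.00342), and *Tcf3* from 75 to 108 FPKM in all libraries. *Tcf25*, which encodes a component of ribosome quality control and was the most abundant of the 86 genes, was at 99 to 119 FPKM. *Tcf21*, a bHLH factor of somatic testis cells, was at 2.85 FPKM in A1-3 and at 0.13 to 0.775 in the other 7 libraries, and A1-3 was also the library with the highest Leydig, myoid and macrophage sums. The part of somatic cells in this value was not tested. *Tcf23* had at most 0.273 FPKM.

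SOX factors carry an HMG box, and 5 of the 7 were tested. *Sox10*, a neural crest factor, had 16.2 and 18.5 FPKM in Aal, 6.25, 4.47 and 4.42 in A1 and 6.83, 8.84 and 11.1 in A3. A1 was lowest, A3 lay between without overlap, and the fall from Aal to A1 was called in every alternative (-1.61 ± 0.15, limma adjusted p = 0.000337). The later difference, A3 against A1, was 0.71 ± 0.18 (0.0339). *Sox12*, of the SoxC group, had 28.9 and 31.6 FPKM in Aal, 49.7, 56.9 and 56.5 in A1 and 56.9, 62.4 and 70.1 in A3. The step from A1 to A3 was 0.21 ± 0.09 (limma adjusted p = 0.14). Against Aal the log2 difference was 0.82 ± 0.08 in A1 (0.000374, under the fold) and 1.03 ± 0.1 in A3 (6.53e-05), where it was called. That call was lost without Aal-1 or A3-3 (0.96 to 0.97) and with median-ratio scaling or the replicate block (0.96 to 0.98).

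*Sox4*, also of the SoxC group, differed in the opposite direction, from 43.8 and 34.7 FPKM in Aal to 21.5 to 23.7 in A1 and 22.4 to 24.8 in A3 (-0.76 ± 0.11 and -0.71 ± 0.11, limma adjusted p = 0.00128 and 0.000669, not past the fold). The mRNA of *Sox12* was thus lower than that of *Sox4* in Aal and higher in every A1 and A3 library, on the FPKM scale, which is per length. *Sox30*, a factor of spermatids, was at 8.23 and 9.53 FPKM in Aal and 3.36 to 6.02 in the other libraries (-0.96 ± 0.14 in A3), and *Sox15* at 0.875 and 1.13 FPKM in Aal and 2.26 to 3.44 in the others (0.87 ± 0.13 in A3). *Sox2* was under the filter at 0.272 to 0.89 FPKM.

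Of 11 FOX genes tested in A3 against Aal, 9 had a negative log2 difference, and *Foxm1* and *Foxa1* a positive one. *Foxc2*, known from mesenchyme and from quiescent spermatogonial stem cells, had 16.8 and 15.9 FPKM in Aal, 9.47, 5.2 and 4.64 in A1 and 5.97, 5.09 and 4.74 in A3. A1-1 was the highest of the differentiating libraries, and both groups lay under Aal. The log2 difference was -1.28 ± 0.25 in A1 (limma adjusted p = 0.00575) and -1.47 ± 0.12 in A3 (3.83e-05), and the A1 call was lost without Aal-1, Aal-2 or A1-2 (-1.31 to -1.18, 0.0159 to 0.0583) and without a mean-variance trend (adjusted p = 0.0116). *Foxa2*, an endoderm factor with 4 to 128 reads, had 1.42 and 2.15 FPKM in Aal and 0.0923 to 0.501 in the other 6 libraries. It was called in both comparisons (-1.19 ± 0.17 and -1.02 ± 0.17), the second of which was lost without A3-2 (-0.92). *Foxa1*, of the same group, was at 0.487 and 0.883 FPKM in Aal and 1.41 to 1.8 in the others (0.69 ± 0.14 in A3, 0.00345), so that *Foxa1* and *Foxa2* differed from Aal in opposite directions.

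*Foxo6* was the only FOX gene past an adjusted p of 0.01 between A1 and A3: it had 9.37 and 10.4 FPKM in Aal, 12.2 to 12.6 in A1 and 7.45 to 7.88 in A3 (-0.63 ± 0.08, limma adjusted p = 0.00203). *Foxr1*, a forkhead gene known from germ cells, was at 43 and 53.5 FPKM in Aal, 25.2 to 29.1 in A1 and 28.1 to 34.3 in A3 (-0.81 ± 0.11 and -0.58 ± 0.12), and *Foxi3* and *Foxp1* were likewise lower in all A3 than in both Aal libraries (-0.84 ± 0.15 and -0.46 ± 0.08). *Foxj3* stayed between 28.3 and 35.6 FPKM and *Foxj1*, of ciliated cells, between 0.809 and 1.34. *Foxq1* was at 1.24 to 2.47 FPKM in all libraries.

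STAT factors carry cytokine signals to the nucleus. *Stat2*, of the type I interferon pathway, had 18.1 and 20.6 FPKM in Aal, 15.1, 18.7 and 16.9 in A1 and 8.4, 8.69 and 9.63 in A3. Aal and A1 overlapped, and all 3 A3 libraries were lower. The log2 difference was -0.85 ± 0.1 from A1 to A3 (limma adjusted p = 0.0018) and -1.04 ± 0.11 from Aal to A3 (0.0001, called, and lost without Aal-2 at -0.95). *Stat5a* and *Stat5b*, neighbours with 8626 bases between them on chromosome 11 and near-identical in coding sequence, differed in opposite directions. *Stat5a* went from 12 and 11.1 FPKM in Aal to 7.57 to 8.03 in A1 and 6.08 to 7.11 in A3 (-0.70 ± 0.11 in A3 against Aal, 0.00104), and *Stat5b* from 5.08 and 5.31 to 7.34 to 9.03 and 8.8 to 9.31 (0.70 ± 0.11, 0.000772). How reads common to both were counted is not given in the sources used here. *Stat3* is annotated over part of *Stat5a* on the other strand. *Stat6* stayed at 0.874 to 2.07 FPKM. Of 6 JAK-STAT genes in the table (25 listed, 5 tested), *Socs1*, a feedback inhibitor, was called higher in both comparisons with Aal (group means 4.32, 10.9 and 12.3 FPKM from Aal to A3).

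**Figure D4:**
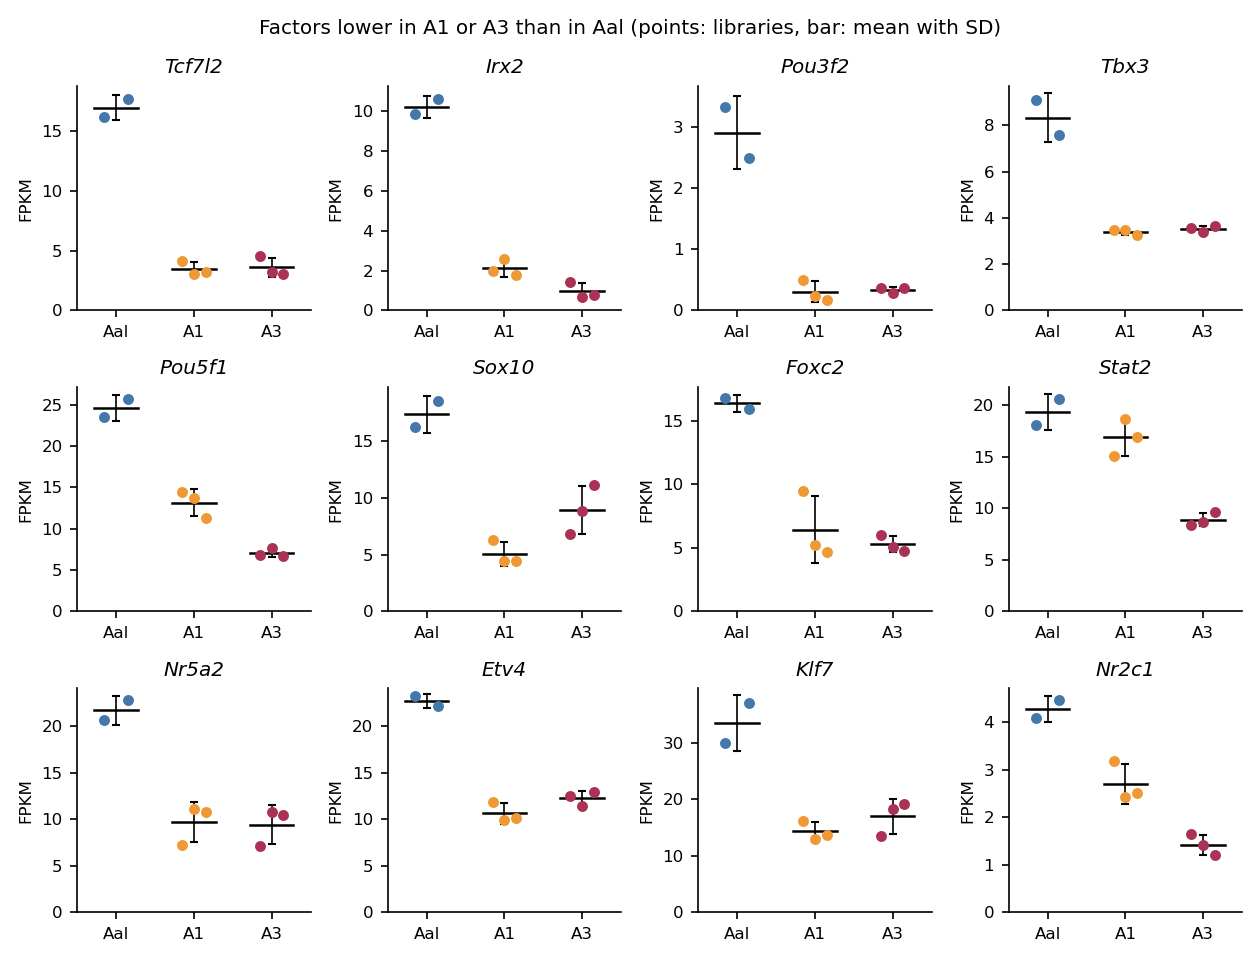
FPKM (y axis, from 0, a different range in each panel) of 12 of the genes called lower than in Aal, in each library (points) with the mean and SD of each group (bars). *Tcf7l2* and *Pou3f2* are near their lowest level in A1, *Irx2*, *Pou5f1* and *Nr2c1* step down through A1 to A3, and *Stat2* is low in A3 alone.

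Other homeodomain genes included *Irx2* and *Nkx1-2*, with the lowest and the highest log2 difference of the 64 transcription factors tested in A3 against Aal. *Irx2*, of the Iroquois family, had 9.84 and 10.6 FPKM in Aal, 1.98, 2.6 and 1.78 in A1 and 1.44, 0.693 and 0.793 in A3, groups that did not overlap. Its log2 difference was -1.85 ± 0.15 in A1 and -2.52 ± 0.18 in A3 (limma adjusted p = 0.000245 and 2.44e-05), and the means differed 10.5-fold in A3 against Aal. *Irx1*, *Irx3* and *Irx5* were at 0.0796 to 1.27 FPKM.

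*Nkx1-2*, known from the caudal epiblast of the embryo, had 0.152 and 0.105 FPKM in Aal (5 reads at the lowest), 0.738, 1.13 and 1.38 in A1 and 2.47, 3.69 and 4.97 in A3. The groups were ordered Aal, A1, A3 without overlap, and A3 against Aal gave a log2 difference of 2.03 ± 0.22 (limma adjusted p = 0.000124) and, on the reads, 4.74 ± 0.62 (voom adjusted p = 8.38e-05). A3 against A1 was 1.15 ± 0.22 with an adjusted p of 0.0103, at the threshold. *Nkx1-2* overlaps *Fgfr2* on its strand and *Gm16764* on the other. Its relative *Nkx1-1* had 3.94 and 2.68 FPKM in Aal, 4.57, 4.34 and 1.32 in A1 and 1.42 to 1.89 in A3, and without A1-3, the one low A1 library, it was called lower in A3 than in A1.

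LIM-homeodomain gene *Lhx6*, known from interneurons, had 4.73 and 4.65 FPKM in Aal, 8.05, 11 and 9.5 in A1 and 9.89, 11.9 and 12.7 in A3. It was called in A3 against Aal (1.13 ± 0.13, limma adjusted p = 0.00017) and lay just under the fold in A1 (0.87 ± 0.14, 0.00221). *Lhx5* was highest in A1, at 1.15, 2.44 and 1.94 FPKM against 0.335 to 0.772 elsewhere (0.9 ± 0.22 from Aal to A1, 0.0145). *Lhx4* was at 0.967 to 1.07 FPKM in A3 against at most 0.689 elsewhere, and *Lhx3* had at most 0.333. *Dlx4* had 2.58 to 3.25 FPKM in Aal, 2.17 to 2.8 in A1 and 1.04 to 1.57 in A3 (-0.78 ± 0.15 in A3 against Aal, 0.00266).

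KLF, EGR and ETV factors respond to growth signals. *Klf7* had 29.9 and 36.9 FPKM in Aal, 16.2, 13 and 13.7 in A1 and 13.5, 18.3 and 19.2 in A3, lowest in A1 with A3 overlapping it (-1.16 ± 0.12 in A1, limma adjusted p = 0.000443, called in every alternative; -0.94 ± 0.15 in A3). *Klf8* stayed at 25 to 31.6 FPKM, *Klf16* at 15.1 to 21 and *Klf15* at 0.431 to 1.15. *Egr3*, an immediate early gene, had 3.82 and 3.7 FPKM in Aal and 0.464 to 1.29 in the 6 other libraries (-1.36 ± 0.2 in A1, 0.00158, and -1.27 ± 0.14 in A3, 0.000135). Its A1 call was lost without Aal-1 or Aal-2 (-1.38 to -1.34, 0.0246 to 0.0269).

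*Etv4*, an ETS factor known to respond to GDNF in undifferentiated spermatogonia, had 23.2 and 22.2 FPKM in Aal, 11.9, 9.92 and 10.1 in A1 and 12.5, 11.4 and 12.9 in A3. A1 and A3 overlapped, far under Aal. The log2 difference was -1.03 ± 0.1 in A1 (limma adjusted p = 0.000344) and -0.83 ± 0.09 in A3 (0.000135), so that the call stood at A1 alone. It was lost without Aal-1, A1-2 or A1-3 and with the replicate block (-0.99 at the weakest).

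Among T-box genes, *Tbx3*, known from limb and mammary development, had 9.08 and 7.58 FPKM in Aal and 3.25 to 3.63 in all 6 others (-1.08 ± 0.12 and -1.04 ± 0.13, limma adjusted p = 0.000593 and 0.00025, both lost without Aal-1 at -0.96 and -0.92). *Tbx20*, a heart factor, was at 1.45 and 1.22 FPKM in Aal and 0.184 to 0.414 in the others (-0.87 ± 0.12 in A1). *Tbx6*, of the paraxial mesoderm, was at 3.48 to 6.5 FPKM in all libraries with overlapping groups.

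Genes under the FPKM filter are described from the recovered reads, and the examples were chosen after their values were seen. Of the 19 genes tested in no comparison, voom on the reads called 8 (24.8% of the 947 genes of the table tested in none): *Hoxa2*, *Meis3*, *Nr4a3*, *Pax2* and *Tbx21* higher and *Foxd1*, *Sox5* and *Stat4* lower than in Aal. *Pax2*, a kidney and urogenital factor, had 0.0547 and 0.0921 FPKM in Aal, 0.742, 0.46 and 0.669 in A1 and 0.401, 0.591 and 0.589 in A3, with 4 to 48 reads (2.95 ± 0.57 in A1 against Aal, voom adjusted p = 0.00389). *Tbx21*, the T cell factor T-bet, had 4 to 40 reads and was at 0.0624 and 0.0811 FPKM in Aal and 0.517 to 0.684 in A3 (2.96 ± 0.5, 0.000515). *Pax6* had at most 0.299 FPKM and *Nr1h5* at most 0.38, and neither was called, and *Klf15*, *Irx1*, *Irx5*, *Lhx3*, *Hoxc13*, *Hoxd1*, *Sox2*, *Tcf21* and *Tcf23* were not called either.

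**Figure D5:**
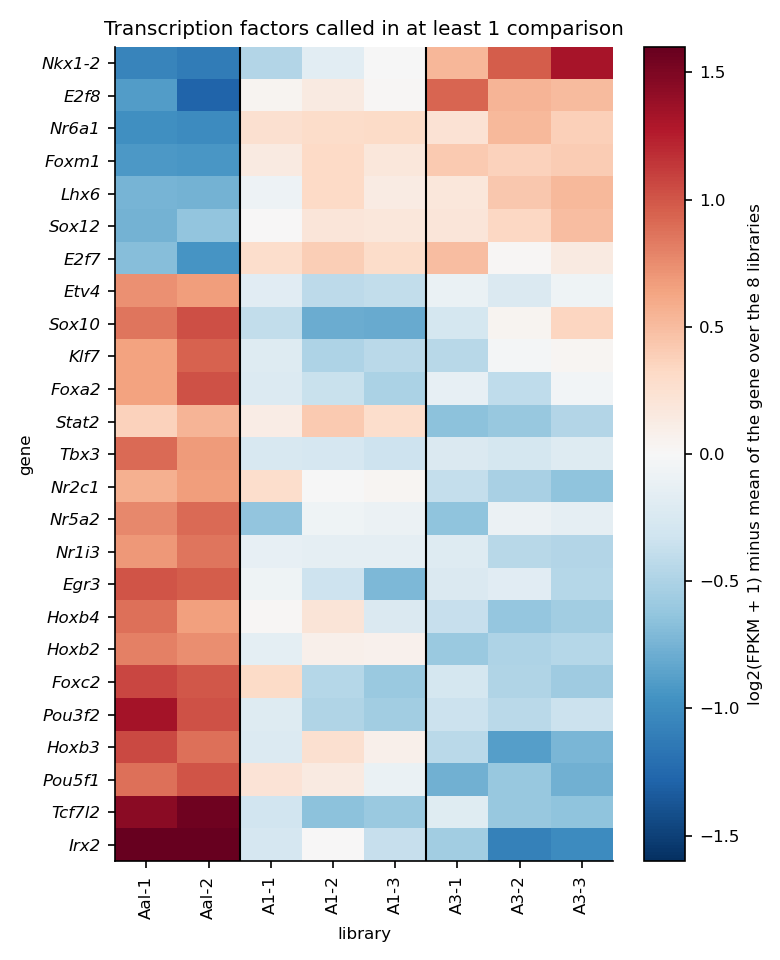
Log2(FPKM + 1) of 25 of the 26 called genes (y axis) in the 8 libraries (x axis), each minus the gene's mean over the libraries (colour). The 7 genes called higher are at the top with the 2 Aal libraries lowest. The 18 others have them highest, except *Stat2*, where A1-2 lies above Aal-1.

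The Sertoli marker sum was raised in A1-3 and in all A3 libraries, with 8 of its 10 genes called higher and 1 lower in A3 against Aal, and its part in the A3 results was not tested. The endothelial sum was lowest in A3, where *Cdh5* was called lower than in Aal (-1.44 ± 0.14, limma adjusted p = 7.36e-05) and *Kdr* and *Tek* were not called, and its part in the lower levels of other genes was not tested. In A1-1 and A1-2 the Sertoli sum was 56 and 52.9 FPKM. There *E2f7* stood at 11.5 and 12.6 FPKM, *E2f8* at 9.11 and 9.77, *Foxm1* at 74.4 and 83.6 and *Nr6a1* at 22.1 and 22.9. *Lhx6* stood at 8.05 and 11 FPKM, *Sox12* at 49.7 and 56.9 and *Nkx1-2* at 0.738 and 1.13. Limma called *Lhx6*, *Sox12* and *Nkx1-2* in A3 against Aal alone. The part of Sertoli cells in these levels was not tested. Without A1-3, 16 genes were called in A1 against Aal, 4 higher and 12 lower. Factors listed as somatic (3 of 22 in the table: *Nr3c1*, *Tcf4* and *Tcf21*) gave no call by limma, and voom called *Tcf4* lower in both comparisons with Aal, while of the 6 germ cell factors in the table (16 listed), *Nr6a1* was called higher in both comparisons with Aal, *Foxc2* lower in both, *Etv4* lower in A1 and *Pou5f1* lower in A3, and *Tcf3* and *Tcf12* were not called.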

How the data were processed

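EGFP+ spermatogonia were profiled by RNA-seq with a stranded mRNA kit and single-end reads. The submitters' processing notes name cutadapt 1.9, STAR 2.5.2b, featureCounts and mm9, and the authors tested counts with DESeq2. The deposited values are FPKM, made by the authors. The annotation and strand setting of the counting are not given in the sources used here, so reads of overlapping and antisense genes cannot be told apart. Whole reads were recovered from the FPKM for 100% of values within 0.01%.

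Groups came from the labels. Each pair of groups was fitted with limma 3.58.1 (R 4.3.3, trend) on log2(FPKM + 1), for genes with at least 1 FPKM in at least 2 libraries, over the whole table, with Benjamini-Hochberg adjustment and calls at an adjusted p of at most 0.01 and a log2 difference over 1. Named were the called members (at most 15 in a direction by size, where the 16 lower in A3 are all given), the highest member of each family, the members of the germ cell and somatic factor lists, and at most 3 called genes of a partner list. Others were named after their values were seen. A called member, which the counts include and the figures leave out, and a gene of a partner list are not reported here. The members and lists were chosen with earlier results of these data known. Alternatives were another pseudocount (0.1), an FPKM minimum of 5, no minimum, median-ratio scaling, no mean-variance trend, an adjusted p of 0.05, a fit over all 8 libraries, voom on the recovered reads, a replicate block and leaving out each library. Voom without the FPKM minimum was chosen after seeing the data. A1 and A3 libraries with 1 number did not deviate together from their group means (r = -0.107, 0.022 and -0.323), so the numbers were not taken as pairs. The fits were tested on simulated data.

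Positions came from the mm9 annotation for 84 of 86 genes, of which 35 overlap another gene, and promoter windows from RefSeq (GRCm38.p6), placed on mm9 by exact match.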

Additional observations from a re-analysis of the deposited data

How the results depend on the processing

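Of 39 calls of these genes, 26 held in every alternative in which the gene was tested, and none changed sign. In A1 against Aal 16 genes were called, 25 with a pseudocount of 0.1, 29 by voom on the recovered reads with or without the FPKM minimum, and 8 to 16 when 1 library was left out (8 without Aal-1, 9 without Aal-2). In A3 against Aal 23 were called, 14 with a minimum of 5 FPKM, where 41 rather than 64 were tested, 36 by voom without the minimum, and 14 to 24 when 1 library was left out. Between A1 and A3 none was called by limma, 1 with a pseudocount of 0.1 (*Hoxa3*), 1 at an adjusted p of 0.05 (*Nkx1-2*), 1 with the fit over all 8 libraries (*Nkx1-2*), 2 by voom with or without the minimum, and 0 to 2 when 1 library was left out (2 without A1-3, 1 without A3-1). With the replicate block 16, 0 and 24 genes were called in A1 against Aal, A3 against A1 and A3 against Aal. Without an Aal library, *Foxa2* and *Pou3f2* in both comparisons with Aal, and *Hoxb2*, *Hoxb3*, *Hoxb4* and *Nr1i3* in A3 against Aal, reached the minimum in too few libraries to be tested.

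Sign changes occurred in differences that were not called. In A1 against Aal, *Klf8* was at -0.034 with median-ratio scaling and -0.001 with the replicate block, and *Nkx1-1* at 0.355 with the block. *Tbx6* was at -0.004 with the block in A3 against Aal. With 1 library left out, log2 differences of A1 against Aal ran from -0.026 to 0.072 for *Klf8*, -0.28 to 0.35 for *Nkx1-1*, -0.13 to 0.072 for *Tcf25* and -0.002 to 0.22 for *Tcf3*. Those of A3 against A1 ran from -0.085 to 0.24 for *Egr3*, -0.37 to 0.079 for *Foxc2*, -0.22 to 0.14 for *Nr5a2*, -0.015 to 0.10 for *Tcf12*, -0.048 to 0.18 for *Tcf3*, -0.16 to 0.08 for *Tcf4* and -0.10 to 0.15 for *Tcf7l2*, and that of A3 against Aal from -0.10 to 0.27 for *Tbx6*. The cause of these changes was not tested. Depth limits the 18 genes with under 10 reads in a library.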
